A study of Mus musculus with 6 samples.

Results

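The 9 genes Tbx2, Tbx3, Tbx5, Vax1, Vax2, Aldh1a1, Aldh1a3, Foxd1 and Hmx1 mark position in the developing eye, and they were followed here across the cell types and genotypes of the mouse retina at embryonic day 14. They and the gene lists used below were chosen by name, with earlier results of these data known, from the 27998 genes of the count matrix. Droplet single-cell RNA-seq, with 3' tags counted as unique molecular identifiers (UMIs), had been made from retinal cells of 3 genotype groups with 2 libraries each. One group was Bax het and Atoh7 null. Another was Bax null and carried wild-type Atoh7. The remaining group was null for Bax and for Atoh7. The first is called het-null and the last double null below. Every group therefore carried a mutation in Bax, a mediator of programmed cell death, in Atoh7, a transcription factor needed for ganglion cell formation, or in both, and no group had both genes intact. The labels name no Cre driver, strain, sex or number of embryos per library, so p-values measure only the spread between these libraries, which may be technical.

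The retina receives its axes from opposing domains of transcription factors. Bone morphogenetic protein (BMP) signalling at the dorsal pole maintains the T-box factors Tbx2, Tbx3 and Tbx5, while the homeodomain factors Vax1 and Vax2 act in the ventral retina and optic stalk. The retinaldehyde dehydrogenases Aldh1a1 and Aldh1a3 make retinoic acid in the dorsal and the ventral domain, respectively, and the enzyme Cyp26a1 degrades it in a band between them. Along the other axis, the forkhead factor Foxd1 marks the temporal retina, and the homeobox factor Hmx1 marks the nasal retina, upstream of the ephrins and Eph receptors that guide ganglion cell axons.

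Letters read from the start sites of these genes are shown for the pair of members that opposed each other along the nasotemporal axis and for Aldh1a1, which went with the T-box genes. RefSeq (GRCm38.p6) gave start sites for 4 of the 9 members, and each sequence covers the 250 bases before a start, 5′ to 3′ on the gene's strand. All 3 genes lie on the plus strand, and capitals mark the only match to the motifs searched.
Aldh1a1, chr19:20492333-20492582: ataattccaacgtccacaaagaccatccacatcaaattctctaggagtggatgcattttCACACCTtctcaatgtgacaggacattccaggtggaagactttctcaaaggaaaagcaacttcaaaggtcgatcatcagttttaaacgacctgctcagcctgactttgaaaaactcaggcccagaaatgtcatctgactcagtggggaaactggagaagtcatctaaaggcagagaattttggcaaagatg
Foxd1, chr13:98353995-98354244: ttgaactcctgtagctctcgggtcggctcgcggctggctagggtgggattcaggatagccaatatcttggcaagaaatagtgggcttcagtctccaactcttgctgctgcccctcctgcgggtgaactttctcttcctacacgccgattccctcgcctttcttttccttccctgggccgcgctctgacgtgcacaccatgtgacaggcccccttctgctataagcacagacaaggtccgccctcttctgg
Hmx1, chr5:35388611-35388860: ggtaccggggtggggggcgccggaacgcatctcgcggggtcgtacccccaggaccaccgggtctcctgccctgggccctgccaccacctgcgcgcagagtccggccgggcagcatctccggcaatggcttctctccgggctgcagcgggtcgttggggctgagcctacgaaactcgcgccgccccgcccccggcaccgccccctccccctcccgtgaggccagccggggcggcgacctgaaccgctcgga
The motifs were a T-box core (AGGTGTG), a homeodomain core (TAATTA) and a core of retinoic acid receptor sites (AGGTCA), each searched on both strands without overlaps between motifs. The capitals in the Aldh1a1 sequence read CACACCT, the T-box core on the minus strand. Of 32851 promoters of the same length, 5.1% held the T-box core, 4.84% the homeodomain core and 14% the receptor core. No match to these letters was found in the Foxd1 and Hmx1 windows, in a second Aldh1a1 start at chr19:20601718-20601967 or before the Vax1 start at chr19:59170398-59170647. A match is a run of letters and was not tested for binding. On GRCm38 (mm10), the GENCODE annotation places the T-box genes Tbx2 at chr11:85832551-85841948, Tbx3 at chr5:119670669-119684724 and Tbx5 at chr5:119832668-119885219, all on the plus strand. It places Vax1 at chr19:59166187-59170056 (minus), Vax2 at chr6:83711264-83738313 (plus), Aldh1a1 at chr19:20492715-20643465 (plus) and Aldh1a3 at chr7:66390890-66427517 (minus). Foxd1 at chr13:98354242-98359305 and Hmx1 at chr5:35389108-35399730 lie on the plus strand. Reads of Vax2 and Vax2os, Tbx3 and Tbx3os1, Hmx1 and 4930442P19Rik, and Aldh1a1 and C730002L08Rik come from opposite strands of overlapping loci. Use of strand in counting is not given in the sources used here, so these pairs may share reads.

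The 6 libraries held 67050 cells, 9269 to 14730 per library, with 22463515 to 66594431 UMIs. The authors' labels put 40882 cells in retinal progenitors (median 1713 to 6977 UMIs per cell across libraries), 12857 in neurogenic cells, 7357 in ganglion cells, 3292 in cones and 2662 in horizontal cells. The Bax null libraries stood apart, with medians of 5660 and 6804 UMIs per cell against 1634 to 2632 in the other 4, and with 686 to 814 CPM (UMIs scaled to the library's total for that cell type) of 3 haemoglobin genes in progenitors against 3.42 to 118. The 2 double null libraries shared 2596 cell barcodes, whereas the other 14 pairs of libraries shared 126 to 223, and 89.5% of these barcodes had the same cell type in both libraries. Leaving out the copy with fewer UMIs of each shared barcode ended none of the 37 member calls between genotypes described below, and added 1, Tbx2 in cones for double null minus Bax null. Marker sums were highest in the type of that name for progenitors, neurogenic cells, ganglion cells and cones, although neurogenic cells of Bax null held more progenitor markers (4003 and 4472 CPM) than neurogenic markers (2150 and 2424). Cells labelled horizontal carried more CPM of 8 ganglion cell markers (2240 to 2743) than of 7 horizontal and amacrine markers (1175 to 1795), the latter at most 214 in every other type. Their largest marker sum was that of the progenitor list, at 3307 to 3952 CPM against 6943 to 9291 in progenitors.

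The retinoic acid enzymes were progenitor genes. Aldh1a1 stood at 375 and 247 CPM in the het-null progenitor sums, 360 and 376 in Bax null, with 402 and 384 in double null. In all 6 libraries this exceeded every value of any other type, where means ranged from 48.1 ± 24.6 (SD, n = 6) in horizontal cells to 96.1 ± 30.7 in neurogenic cells. Aldh1a3 averaged 47.6 ± 7.94 CPM in progenitors against 9.74 ± 3.24 in neurogenic cells and 4.02 ± 1.44 in ganglion cells, again with no overlap. At 2000 UMIs per cell, 5.61% to 11.4% of progenitors had an Aldh1a3 UMI against 0.33% to 1.27% of ganglion cells, whose median depth was 1834 to 6683 UMIs. Unthinned shares were 7.8% to 16.4% and 0.7% to 1.86%.

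Vax2, Foxd1 and Tbx2 also had their highest mean in progenitors, by smaller margins. Vax2 averaged 94.2 ± 10.0 CPM there, 63.7 ± 11.7 in ganglion cells, 58.7 ± 19.3 in neurogenic cells, 48.2 ± 3.54 in horizontal cells and 35.4 ± 6.29 in cones. Progenitors exceeded each of these types within all 6 libraries, and only the neurogenic range overlapped that of progenitors. Foxd1 averaged 15.9 ± 1.79 CPM in progenitors, above the neurogenic cells of the same library (13.1 ± 1.44) in 6 of 6, and 7.81 ± 2.44 to 9.61 ± 1.62 elsewhere. Tbx2 averaged 27.9 ± 5.75 CPM in progenitors and 13.9 ± 4.81 to 21.5 ± 8.46 in the other types, and progenitors exceeded ganglion cells in 5 of 6 libraries, the exception being the first Bax null library (21.4 against 24.9). Vax1, which acts mainly in the optic stalk, reached only 1.34 ± 0.31 CPM in progenitors, from 196 UMIs over all libraries, and a mean of 0.14 in ganglion cells, from 3 UMIs, and it exceeded the cone level in only 3 of 6 libraries.

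The other 3 members peaked outside the progenitors. Tbx5 was highest in ganglion cells in every library, at 12.5 and 16.3 CPM in het-null, 36.3 and 34.3 in Bax null, with 19.1 and 31.6 in double null. Its progenitor level was 6.29 ± 1.52 CPM, a ratio of means of 3.98, and no ganglion cell value overlapped the progenitor values. Tbx3 averaged 42.5 ± 4.13 CPM in progenitors, 80.5 ± 26.2 in neurogenic cells and 88.5 ± 20.8 in horizontal cells, the latter types being higher in 6 of 6 libraries, and the last 2 types did not differ beyond their spread. Hmx1 was highest in cells labelled horizontal, at 440 and 495 CPM in het-null, 140 and 176 in Bax null, with 502.5 and 554 in double null. Progenitors followed with 111 ± 58.7 CPM, above ganglion cells (94.2 ± 49.6) in 6 of 6 libraries by a ratio of means of 1.18 only. In sums over cells, fewer expressing cells and less RNA per cell cannot be told apart.

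**Figure D1:**
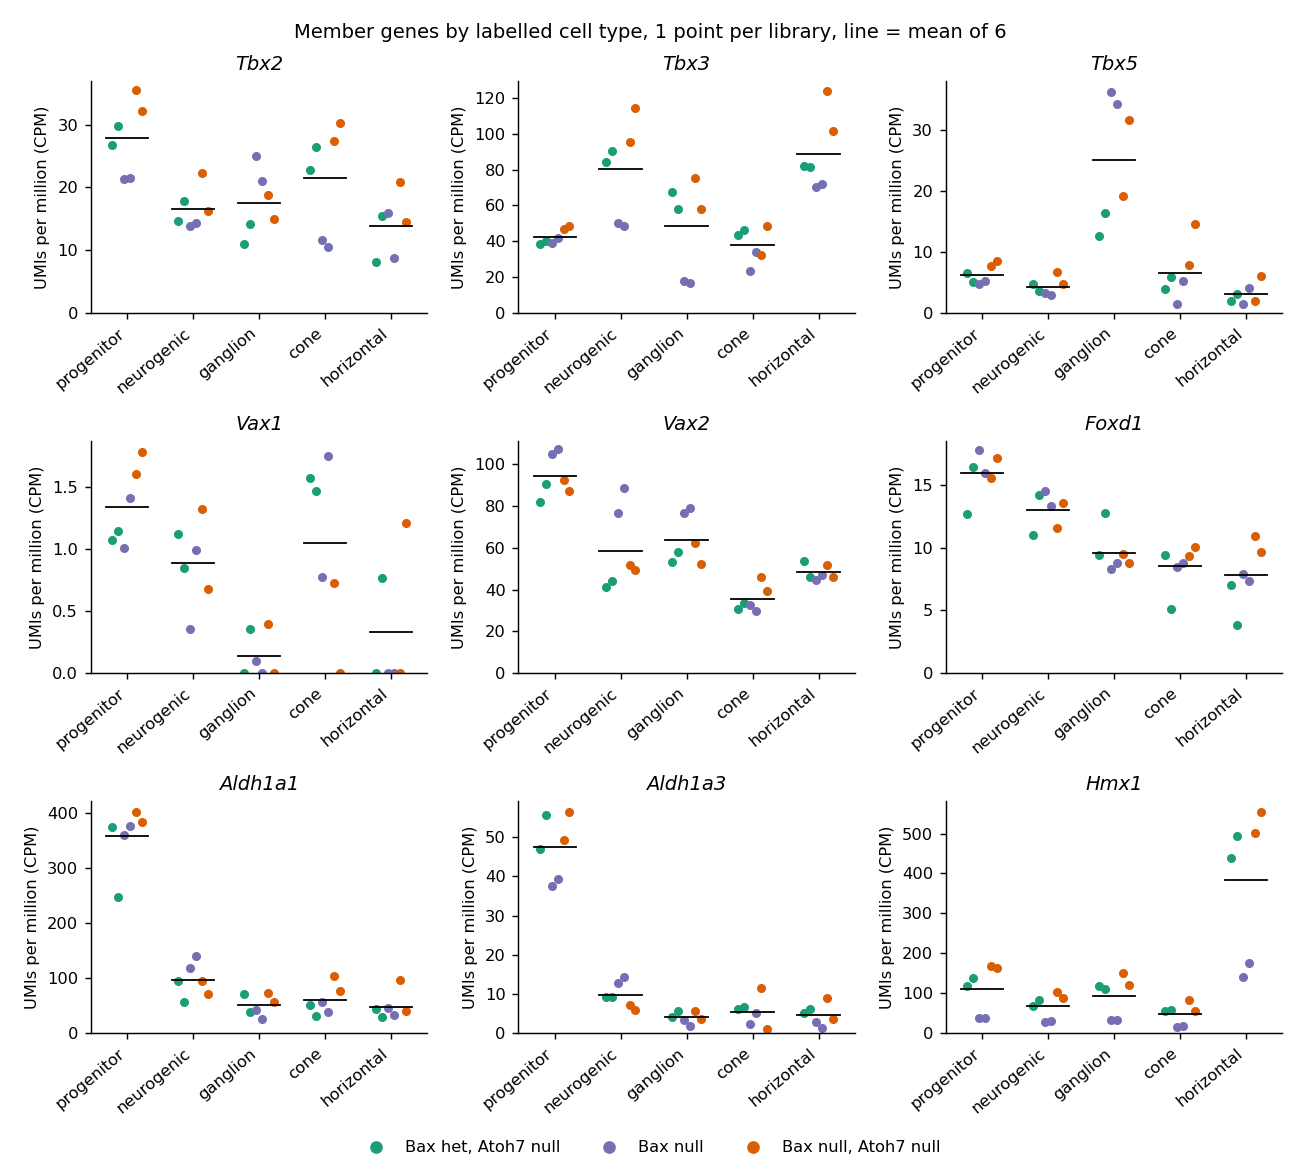
Level of each member (CPM, linear axes from 0) in the 5 labelled cell types, with 1 point per library coloured by genotype group and a line at the mean of 6. Aldh1a1 and Aldh1a3 are highest in progenitors without overlap (means 358 and 47.6 CPM), Tbx5 in ganglion cells (25.0) and Hmx1 in cells labelled horizontal (384).

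Detection in single progenitors separated the dorsal from the ventral factors. Of 40882 progenitors, 8325 had a UMI of at least 1 T-box member and 8867 of at least 1 Vax member, and 1223 had both. If the genes were spread independently within each of 20 bins of cells of like depth, 2224 cells would have had both. The ratio of observed to expected was 0.55, between 0.53 and 0.58 in the 6 libraries. The cells of a library are not replicates, so this ratio is a description, given for 36 pairs of single members and 5 pairs with the Tbx or Vax genes pooled. Tbx5 and Vax2 met least often, in 36 cells where 219 were expected (ratio 0.16, 0.045 to 0.33). Tbx3 with Vax2 (0.52, 0.50 to 0.57) and Tbx2 with Vax2 (0.55, 0.52 to 0.62) lay close to each other, and all 6 libraries were below 1 for each pair.

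Members of the same pole met more often than expected. Tbx2 with Tbx3 had a ratio of 1.49 (1.27 to 1.68), Tbx3 with Tbx5 of 2.17 (1.6 to 2.58) and Tbx2 with Tbx5 of 2.03 (1.55 to 2.29). Vax1 and Vax2 met in 111 cells against 59.8 expected (1.86). Aldh1a1 followed the T-box genes, with a ratio of 1.32 to any of them (1.28 to 1.39) and 2.4 to Tbx5, and it met the Vax genes at 0.68 (0.64 to 0.78). Aldh1a3 did the reverse, at 1.72 with the Vax genes (1.66 to 1.83) and 0.49 with the T-box genes (0.43 to 0.57). The 2 enzymes themselves met in 1566 cells where 1576 were expected, a ratio of 0.99 (0.88 to 1.09). That pair lay above 1 in the 4 Atoh7 null libraries and below 1 in both Bax null libraries, and it moved to 0.90 with the expectation taken within the authors' clusters and to 1.2 without depth bins.

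Shares of cells gave the same order at matched depth. Thinned to 2000 UMIs, 25.3% to 44.1% of progenitors with only T-box UMIs had Aldh1a1, against 9.52% to 17.5% of those with only Vax UMIs. For Aldh1a3 the shares were 1.36% to 3.31% and 12.0% to 21.1%, and neither pair of ranges overlapped. Unthinned, the Aldh1a1 shares were 30.1% to 58.8% and 13.7% to 27.3%, and the Aldh1a3 shares 2.39% to 5.22% and 21.2% to 35.8%. Thinning left out 3538 of 12688 het-null progenitors, 482 of 11633 Bax null and 9013 of 16561 double null.

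Along the nasotemporal axis, Foxd1 and Hmx1 met in 411 cells where 635 were expected, a ratio of 0.65, and each library lay below 1 (0.50 to 0.74). The lowest ratios were those of Bax null, 0.50 and 0.56, against 0.70 to 0.74 in the other 4 libraries. Bax null progenitors were also deeper, with medians of 5869 and 6977 UMIs against 1713 to 2836. In thinned progenitors the Bax null libraries had only 4 and 7 cells with both genes, against 15 to 28 in the other 4. The Bax null counts are too few to show whether the split holds at matched depth. The split is therefore not read as a genotype difference. Both axes were linked weakly: Hmx1 met Vax2 at 1.12 (1.07 to 1.15), Aldh1a3 at 1.17 and Tbx5 at 1.31 (1.15 to 1.5), whereas its ratio with Tbx2 was 1.0 and with Tbx3 0.95. Foxd1 met Aldh1a1 at 1.23 (1.19 to 1.32) and Tbx3 at 1.19 (1.06 to 1.42), and Vax2 at 0.84, below 1 in 5 of 6 libraries. Outside the progenitors the T-box and Vax genes still met less often than expected, at 0.74 in neurogenic cells, 0.79 in ganglion cells, 0.63 in cones and 0.66 in horizontal cells, the last with 1 library above 1.

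**Figure D2:**
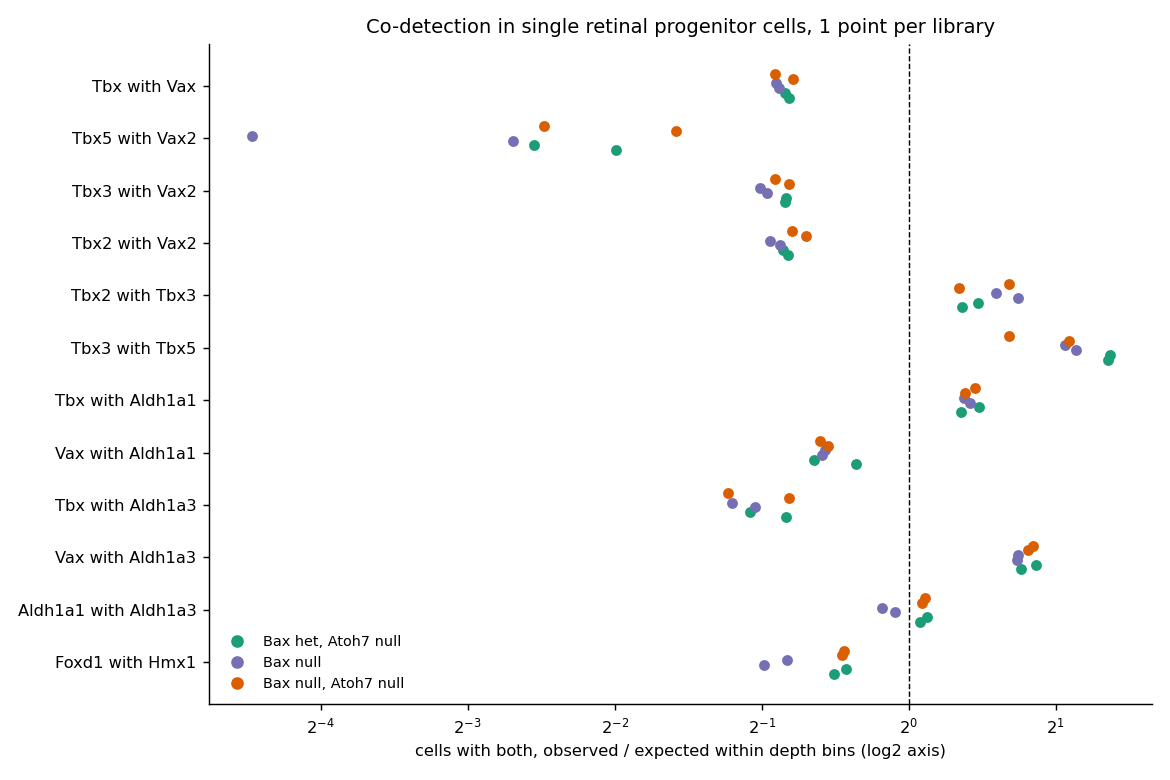
Progenitors with UMIs of both genes divided by the number expected within 20 depth bins (log2 axis, dashed line at 1), with 1 point per library. Tbx2, Tbx3 and Tbx5 with Vax2 and the pooled T-box with Vax pair (0.55) lie left of 1 in all 6 libraries, pairs of 1 pole lie right of it, and Aldh1a1 with Aldh1a3 straddles it (0.99).

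To describe what else differed, progenitors with T-box UMIs and no Vax UMI (Tbx-marked, 7102 cells) were compared with the converse (Vax-marked, 7644 cells) as paired sums within each library. Median depths were 1845 to 7376 and 2232 to 7674 UMIs, and Vax-marked cells had the higher median in every library. With edgeR's quasi-likelihood test and Benjamini-Hochberg adjustment, 2186 of 11449 genes were called at an adjusted p under 0.05 (19.1% of genes tested). In Tbx-marked cells 892 were higher (7.79%) and 1294 lower (11.3%). The 5 Tbx and Vax members defined the classes and were not tested, and all 4 others were called. Aldh1a1 stood at 762 ± 238 CPM in Tbx-marked and 125 ± 25.5 in Vax-marked cells, a log2 difference of 2.69 ± 0.086 (SE; adjusted p = 1.08e-25, 6 of 6 libraries). Aldh1a3 fell by 3.02 on the log2 scale, from 107 ± 10.7 CPM in Vax-marked to 14.2 ± 3.76 in Tbx-marked cells (adjusted p = 1.84e-27). Foxd1 was higher by 0.53 ± 0.092 (adjusted p = 2.79e-05) and Hmx1 lower, at 106 ± 46.1 against 128 ± 55.1 CPM (log2 difference -0.27 ± 0.042, adjusted p = 3.71e-06), each in 6 of 6 libraries. Between cells with Tbx5 alone and Vax2 alone Hmx1 went the other way (0.37), and Foxd1 was not called there, nor in thinned cells. Without pairing by library neither was called.

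Known dorsal genes went with the T-box members. Of 8 such genes listed besides the members, 7 were tested and all 7 were called higher in Tbx-marked cells, with a median log2 difference of 1.79 where that of all genes was -0.005. Gdf6, a BMP ligand of the dorsal eye, stood at 4.79 ± 0.96 CPM against 0.17 ± 0.20 (log2 difference 4.47), and Bmp4, the founding dorsal ligand, at 2.04 ± 0.58 against 0.65 ± 0.39 (1.73, adjusted p = 0.000359). Bambi, a BMP pseudoreceptor, differed by 2.7, and the B-class ephrins Efnb1 and Efnb2, which guide dorsal axons, by 2.01 and 1.79. Cyp1b1, another retinoic acid enzyme, differed by 0.34 only, in 4 of 6 libraries, and lost its call without either Bax null library, with DESeq2 and in thinned cells.

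The ventral list ran the other way except for Cyp26a1, which was listed there although its band lies between the 2 domains. Of 11 listed ventral genes, 8 were tested, 6 were called lower and 1 higher in Tbx-marked cells (median -0.86). Smoc1, a secreted BMP antagonist, stood at 1.7 ± 1.04 CPM in Tbx-marked and 25.8 ± 5.54 in Vax-marked cells (log2 difference -3.98 ± 0.17, adjusted p = 1.63e-21). The BMP receptor Bmpr1b differed by -2.32, the Eph receptors Ephb1 and Ephb2 by -1.09 and -0.39, and the nuclear receptor Nr2f1 by -0.64. Pax2, which marks the optic stalk, differed by -1.08 in 4 of 6 libraries and lost its call without the second Bax null library and with DESeq2. The gene called higher was Cyp26a1, which degrades retinoic acid, at 104 ± 15.8 CPM in Tbx-marked against 10.2 ± 2.68 in Vax-marked cells (3.46 ± 0.093, adjusted p = 5.04e-28).

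Of 20 genes listed for the BMP pathway, 14 were tested, 8 were called higher in Tbx-marked cells, 1 lower and 5 not called, with a median of 0.43, where 7.79% of all genes tested were called higher. The Id genes, direct targets that inhibit differentiation factors, differed by 0.93 (Id1), 1.2 (Id2), 1.07 (Id3) and 1.39 (Id4), and the homeobox target Msx2 by 3.74. The ligand Bmp7 was the gene called lower, at 2.94 ± 0.69 against 5.28 ± 1.74 CPM, and was not called with DESeq2. The calls of Msx1 and Bmpr2, both higher in 4 of 6 libraries, were lost with DESeq2 and without single libraries (Msx1 without either het-null or the first double null library, Bmpr2 without either Bax null or the first double null library). Of 19 retinoic acid pathway genes 14 were tested, 3 were called higher and 3 lower (median 0.035). The nuclear receptor Nr2f2 stood at 85.0 ± 3.39 CPM in Tbx-marked and 16.4 ± 1.66 in Vax-marked cells (2.36), the retinoic acid binding protein gene Crabp1 differed by 0.63, and the retinol transporter Stra6 (-0.94) was among those lower. Of 13 nasotemporal genes 8 were tested, 4 were called higher and 2 lower (median 0.37). The ephrin receptors Epha3 (1.05), Epha4 (0.87), Epha7 (0.74) and Epha5 (0.60) were higher, and the ephrin Efna5 (-0.50) was among those lower. Epha3, Epha4 and Efna5 were not called between cells with Tbx5 alone and Vax2 alone. Stra6 went the other way, uncalled, between cells with Tbx5 alone and Vax2 alone (0.22).

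Among all genes at 20 CPM or more, the 8 highest on the Tbx side were Cyp26a1, Bambi, Unc5b, Aldh1a1, Nr2f2, Efnb1, Plppr1 and Efnb2. Unc5b, a netrin receptor, stood at 32 ± 17.7 against 5.7 ± 1.51 CPM (2.7). On the Vax side they were Smoc1, Vax2os, Aldh1a3, Bmpr1b, Tenm3, Gad2, Igfbp5 and Hsd17b11. Vax2os, the antisense neighbour of Vax2, stood at 23.0 ± 10.1 against 211 ± 39.4 CPM (-3.39), and its reads may be shared with Vax2, which defined the class. Tenm3, a teneurin involved in visual wiring, differed by -2.0, and Gad2, an enzyme of GABA synthesis, by -1.73. Beside these genes, the summed ciliary margin markers lay lower in Tbx-marked than in Vax-marked cells in 6 of 6 libraries (142 to 307 against 262 to 477 CPM, all 6 genes detected), and the ganglion cell markers higher in 6 of 6 (65.8 to 156 against 50.2 to 105 CPM). The part of these markers in the differences was not tested. With DESeq2 886 genes were called, in thinned cells 759, between Tbx5 and Vax2 alone 1157, and 83 without pairing the sums by library; the Aldh1a1, Aldh1a3, Smoc1, Bambi, Cyp26a1 and Nr2f2 calls held in all of these.

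The same comparison for progenitors with Foxd1 UMIs and no Hmx1 UMI (1668 cells) against the converse (9563 cells) called 238 of 11535 genes (2.06%), 122 higher (1.06%) and 116 lower (1.01%) in Foxd1-marked cells. Of 13 nasotemporal genes listed besides the members 8 were tested, 1 was called higher and 2 lower. Efna5 (70.3 ± 13.2 against 127 ± 28.6 CPM, -0.79) was among those lower, and the ephrin receptor Epha5 was the gene called higher (430 ± 75.1 against 258 ± 59.7 CPM, 0.76 ± 0.036, adjusted p = 1.73e-94), with a list median of 0.093. Cyp1b1 differed by -2.78 and Pax2 by -3.24, the latter in 5 of 6 libraries. Pax2 rested on few UMIs, at 0 to 3.21 CPM in Foxd1-marked and 1.79 to 8.35 CPM in Hmx1-marked cells. Of 6 members tested 4 were called: Vax2 (-0.74 ± 0.061) and Aldh1a3 (-0.89 ± 0.087) were lower in Foxd1-marked cells in 6 of 6 libraries, Aldh1a1 was lower by a log2 difference of -0.22 in 5 of 6, and Tbx3 was higher by 0.45 in 5 of 6. The Aldh1a1 call was lost without the first and the Tbx3 call without the second Bax null library, and both with DESeq2. In single progenitors Aldh1a1 met Foxd1 at 1.23 and Hmx1 at 1.08 (1.05 to 1.10), so detection of Aldh1a1 did not share the direction of its sums.

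The highest values on the Foxd1 side were those of Cdo1, a cysteine dioxygenase (69.2 ± 17.1 against 26.7 ± 6.02 CPM, 1.49), Cyp26a1 (1.13), Zfhx4 (0.81), Epha5, the activin antagonist Fst (0.67), Pak3 (0.63), Prss23 (0.60) and March11 (0.55). On the Hmx1 side stood Cpne8 (-0.96), the growth cone protein gene Gap43 (-0.93), Aldh1a3, Hsd17b11 (-0.82), Efna5, Vax2, Flrt1 (-0.67) and the neuronal tubulin gene Tubb3 (-0.63). Of 8 dorsal genes 6 were tested and Cyp1b1 alone was called, lower (list median 0.22, that of all genes 0.006). Of 11 genes of the ventral list 8 were tested, with Smoc1 (-1.3), Ephb1 (-1.36), Bmpr1b (-0.73) and Pax2 called lower (median -0.42). Cyp26a1, on that list although its band lies between the domains, was called higher. Of 20 BMP pathway genes 13 were tested, with Id1, Id2 and Id3 called higher by 0.31 to 0.36 and Bmp7 lower (median 0.075). Of 19 retinoic acid genes 15 were tested, with 1 called higher (Crabp2) and 2 lower, among them Stra6 (median -0.056). The Bmp7 and Crabp2 calls were lost without either Bax null library, Bmp7 also without the first het-null library. Neurogenic and cone marker sums lay lower in Foxd1-marked cells in 6 of 6 libraries (neurogenic 283 to 527 against 304 to 559 CPM, cone 16.4 to 36.4 against 22.8 to 51.2), and progenitor markers higher (6933 to 9749 against 6614 to 8645); their part was not tested. DESeq2 called 79 genes, thinned cells 24, unpaired sums 5, sums without the first Bax null library 122 and without the second 157; the Cyp26a1 and Cdo1 calls held in all of these.

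**Figure D3:**
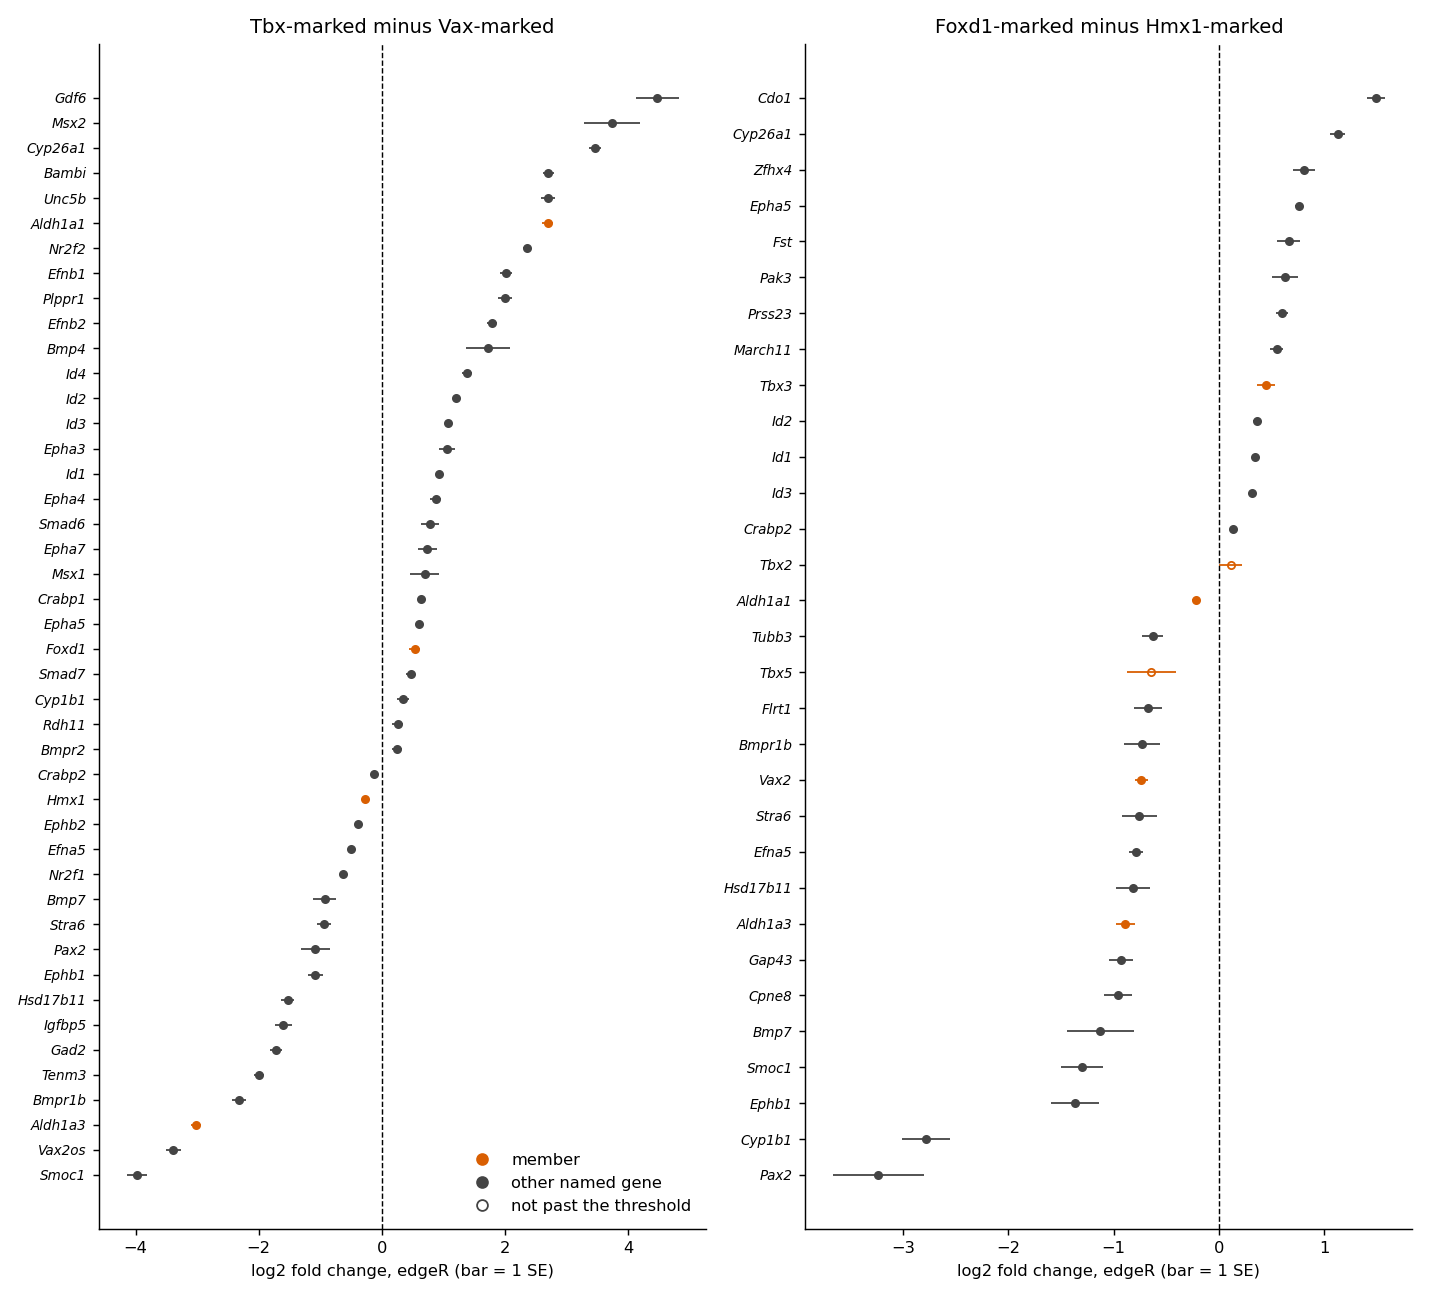
Log2 fold change (edgeR, bar = 1 SE) of the named genes between Tbx-marked and Vax-marked progenitors (left, positive = higher in Tbx-marked) and between Foxd1-marked and Hmx1-marked progenitors (right, positive = higher in Foxd1-marked), with members in orange and open points not past the threshold. Aldh1a1 (2.69) and Aldh1a3 (-3.02) lie near opposite ends on the left, and Pax2 (-3.24) and Cdo1 (1.49) are the ends on the right. Pax2 levels were low (0 to 3.21 CPM in Foxd1-marked cells).

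Across the 81 progenitor clusters of at least 100 cells, the members varied unequally. Aldh1a1 ranged from 40.9 to 2056 CPM (median 211), Aldh1a3 from 7.46 to 158, Hmx1 from 24.9 to 276 and Vax2 from 34.1 to 167. Of 5523 genes at a mean of 20 CPM, those most like Aldh1a1 by Pearson correlation of log2(CPM + 1) were Wfdc1 (r = 0.94), which was also listed as a ciliary margin marker, and Rhoj (0.92). Aldh1a3 was most like the neurotrophin receptor gene Ntrk2 and the cyclin gene Ccnd2 (0.90 and 0.89). Hmx1 was most like Efna5 and Pvrl3 (0.88 and 0.87), Tbx3 like the eye-field gene Six3 (0.75), and Tbx5 like Sulf2 and Nr2f2 (0.69 and 0.66). Vax2 was most like Vax2os (0.63) and Cox7b (0.62), Tbx2 like Malat1 (0.77) and Rab24 (0.75), Vax1 like Shisa2 (0.64) and Tsc22d1 (0.63), and Foxd1 like Polr2a and Tnrc6a (both 0.56). Among the members, Aldh1a1 went with Aldh1a3 (r = 0.81) and Tbx5 (0.58), but not with Tbx2 (-0.05) or Tbx3 (-0.46). Aldh1a1 also went with Vax1 (0.51), Hmx1 and Foxd1 (both 0.45), and less with Vax2 (0.19). Aldh1a3 went with Vax1 (0.62), Hmx1 (0.55), Vax2 (0.48), Tbx5 (0.42) and Foxd1 (0.39) and opposed Tbx2 (-0.23) and Tbx3 (-0.62). Vax1 was at most 4.66 CPM in any of these clusters. Vax2 opposed Tbx2 (-0.71) and Tbx3 (-0.49), and Tbx5 less (-0.12). Over clusters the 2 enzymes thus rose together, whereas between the marked classes Aldh1a1 was higher in Tbx-marked and Aldh1a3 in Vax-marked cells. The classes did not keep the enzymes apart within cells. Unthinned, 7.45% to 14.4% of Vax-marked progenitors had both, against 1.04% to 2.65% of Tbx-marked ones. Clusters differ in depth and in the libraries they draw on, and 5 of the 9 members were among the 2632 genes the authors had marked for ordering cells, so these correlations describe the clustering as much as the genes.

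Between genotypes, progenitors differed in the members only in contrasts with Bax null. Levels here are CPM after edgeR's TMM scaling, which centres the bulk of genes between libraries, and the 2 contrasts below share the Bax null libraries, whose depth, haemoglobin level and group cannot be told apart. Against Bax null, 5 of 9 members were called in each contrast: Hmx1 was higher, and Vax2, Aldh1a1, Foxd1 and Tbx3 were lower. The background was high, at 53.9% of genes tested for double null minus Bax null and 53.1% for het-null minus Bax null, so the count lies near it. Genes called higher were 26.8% and lower 27.1% in the first contrast, and 26.6% and 26.5% in the second. Hmx1 stood at 107 and 126 CPM in het-null, 50.8 and 50.1 in Bax null, with 148 and 131 in double null. Both groups lacking Atoh7 lay above Bax null without overlap, with log2 differences of 1.47 ± 0.10 (adjusted p = 6.39e-06, edgeR) for double null and 1.21 ± 0.10 (adjusted p = 2e-05) for het-null. Vax2 stood at 74.1 and 82.2, then 137 and 141, then 81.6 and 70.6 CPM in the same order of groups, the Bax null libraries being highest (-0.87 ± 0.094 and -0.83 ± 0.094, edgeR adjusted p = 8.13e-05 and 0.000108). Summed markers of the progenitor sums moved with Bax null too: the optic stalk list (Pax2 and the member Vax1) stood at 7.31 and 8.93 CPM against 2.57 to 3.87 in the other 4 libraries, the ciliary margin list at 194.5 and 194.9 against 259.6 to 321.5, and the neurogenic list at 346.4 and 331.8 against 551 to 595.9. Their part in the differences was not tested.

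These differences depended on scaling. Scaled to total UMIs only, the median log2 difference of all genes in progenitors moved to 0.64 for double null and 0.54 for het-null minus Bax null. Genes called higher went from 3596 of 7222 to 8903 of 9823 in the first contrast and from 3570 of 7119 to 8088 of 8972 in the second. Hmx1 then differed by 2.1 and 1.74, and Vax2 by -0.24 and -0.30, both still called. Tbx3, at -0.40 and -0.57 with TMM, moved to 0.23 and -0.03 with total UMIs, where the double null value was called in the opposite direction (edgeR adjusted p = 0.0365) and the het-null value was not called. Aldh1a1, at -0.54 and -0.78, moved to 0.094 and -0.24, with neither value called. Foxd1, at -0.68 and -0.75 with TMM, moved to -0.05 and -0.22 and lost both calls. The Aldh1a1 call for double null minus Bax null was also lost without either Bax null library and without the second double null library (adjusted p = 0.0231 with all 6, edgeR). Tbx2, Tbx5, Aldh1a3 and Vax1 were not called in progenitors with TMM. With total UMIs Tbx2 (0.66 and 0.40) and Aldh1a3 (0.45 and 0.42) were called higher in both contrasts, and Tbx5 (0.68) in the first.

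double null and het-null progenitors, which differ in Bax, were not separated by any member: edgeR called 0 of 9 (2.01% of genes tested were called), and DESeq2 called 0 as well. At an unadjusted p under 0.05 edgeR had 2 members, Hmx1 and Tbx5 (adjusted p = 0.272 and 0.349), and DESeq2 had 1. None was called in neurogenic, ganglion or horizontal cells either, where 1.77%, 2.34% and 1.61% of genes were. In cones Aldh1a1 stood at 48.1 and 29.5 CPM in het-null and 93.3 and 64.2 in double null (log2 difference 1.06 ± 0.23, adjusted p = 0.0167, against 1.46% of genes called). That call was lost with DESeq2, with only the 4 libraries compared, with thinned sums, without the deepest 8% of cells and without the second het-null or the first double null library.

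Of 9 nasotemporal genes tested in progenitors against Bax null, 5 were called higher, 0 lower and 4 not called for double null, and 6, 0 and 3 for het-null, with medians of 0.65 and 0.68 where those of all genes were 0.006 and 0.004. Genes of the ventral list, Cyp26a1 among them, were called lower in 5 and higher in 2 of 10 for double null. For het-null they were called lower in 5 and higher in 1 of 10 (medians -0.33 and -0.30). Dorsal genes were mostly uncalled, with 2 of 7 lower in the first contrast and 2 lower and 1 higher in the second. Retinoic acid genes split into 4 higher and 6 lower of 16 in both contrasts, and BMP genes into 5 higher and 6 lower, or 4 higher and 7 lower, of 18. Over all genes tested, 53.9% and 53.1% were called, above the share of the dorsal list and near those of the retinoic acid and BMP lists, and nothing particular to any list is read from these counts. None of the listed genes tested was called between the 2 groups lacking Atoh7. These counts use the same TMM scale, and their medians would move up with scaling to total UMIs.

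The ganglion cells showed a different set. Tbx5 stood at 11.5 and 15.1 CPM in het-null, 46.5 and 44.8 in Bax null, with 16.6 and 26.3 in double null. The Bax null libraries lay above all others, with log2 differences of -1.74 ± 0.19 for het-null and -1.1 ± 0.17 for double null (edgeR adjusted p = 1.27e-05 and 0.000154). Tbx2 went the same way, from 31.9 and 27.4 CPM in Bax null to 10.1 and 13.2 in het-null and 16.2 and 12.4 in double null (-1.32 and -1.04). Tbx3 went the other way, from 22.6 and 21.6 CPM in Bax null to 61.8 and 53.6 in het-null and 65.2 and 48.3 in double null (1.37 ± 0.15 and 1.36 ± 0.15, edgeR adjusted p = 1.12e-05 and 8.15e-06). Hmx1 was higher (1.31 and 1.45) and Vax2 lower (-0.96 and -1.04). In all, 5 of 8 members tested were called in each contrast, against 50% (het-null) and 52.7% (double null) of genes. With total UMIs all 5 kept their direction and call, at -0.49 for Tbx5, -0.44 for Tbx2 and -0.44 for Vax2 in double null minus Bax null.

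The ganglion cell sums also differed in their makeup. The 8 ganglion cell markers summed to 11970 and 12600 CPM in Bax null and 7464 to 9080 in the other 4 libraries, the 7 neurogenic markers to 598 and 601 against 1152 to 1530, and the 7 horizontal and amacrine markers to 48.5 and 51.5 against 168 to 214. Over all 6 libraries, Tbx3 averaged 80.5 CPM in neurogenic and 88.5 in horizontal cells, against 48.8 in ganglion cells. Tbx5 averaged 4.32 and 3.1 CPM in these 2 types against 25.03 in ganglion cells, and Tbx2 16.55 and 13.91 against 17.45. The part of these markers in the differences was not tested.

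In neurogenic cells 6 of 8 members tested were called in both contrasts with Bax null (47.3% and 47.1% of genes). Hmx1 (1.09 and 0.83) and Tbx3 (0.49 and 0.31) were higher in double null and het-null, and Aldh1a1 (-1.22 and -1.31), Aldh1a3 (-1.63 and -1.08), Vax2 (-1.29 and -1.46) and Foxd1 (-0.74 and -0.64) were lower. Aldh1a3 stood at 8.25 and 8.36 CPM in het-null, 16.6 and 18.5 in Bax null, with 6.29 and 4.9 in double null. The het-null calls of Tbx3 and Foxd1 were fragile: Tbx3 lost its call without the second het-null or either Bax null library and with DESeq2, and Foxd1 without the first het-null library, and both lost it in sums thinned to the smallest. With total UMIs Foxd1 lost its calls and the other 5 kept theirs, Vax2 at -0.70 and -0.95 and Aldh1a1 at -0.63 and -0.80. The neurogenic markers of these sums were 2150 and 2424 CPM in Bax null against 4399 to 5195 elsewhere, and the progenitor markers 4003 and 4472 against 3575 to 3910; their part was not tested. In cones and horizontal cells Hmx1 alone was called against Bax null: 1.6 and 1.36 in cones (28.1% and 27.5% of genes called), 1.21 and 1.13 in horizontal cells (29.2% and 30.2%). Hmx1 was thus higher than in Bax null in each of the 5 types, in both contrasts and with both scalings.

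Whether a genotype difference in a cell type departed from that in progenitors of the same library was tested with an interaction term over all genes. The filter on low counts took the type and the progenitors together. Genes too low to be tested in the type alone were therefore counted too, such as Vax1 with 3 UMIs in ganglion cells. Against Bax null, 4 of 9 members departed in ganglion cells in each contrast (15.7% of genes for double null and 15.2% for het-null) and 5 of 9 in neurogenic cells (7.46% and 8.35%). In ganglion cells Tbx3 departed by 1.79 and 1.94, and Tbx5 by -1.15 and -1.41. In cones 2 members departed for double null (4.91% of genes) and 1 for het-null (5.3%), and in horizontal cells 2 for double null (3.09%). Between double null and het-null, 1 member departed in cones (Aldh1a1, 0.0152% of genes). This comparison was added after the data had been seen.

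**Figure D4:**
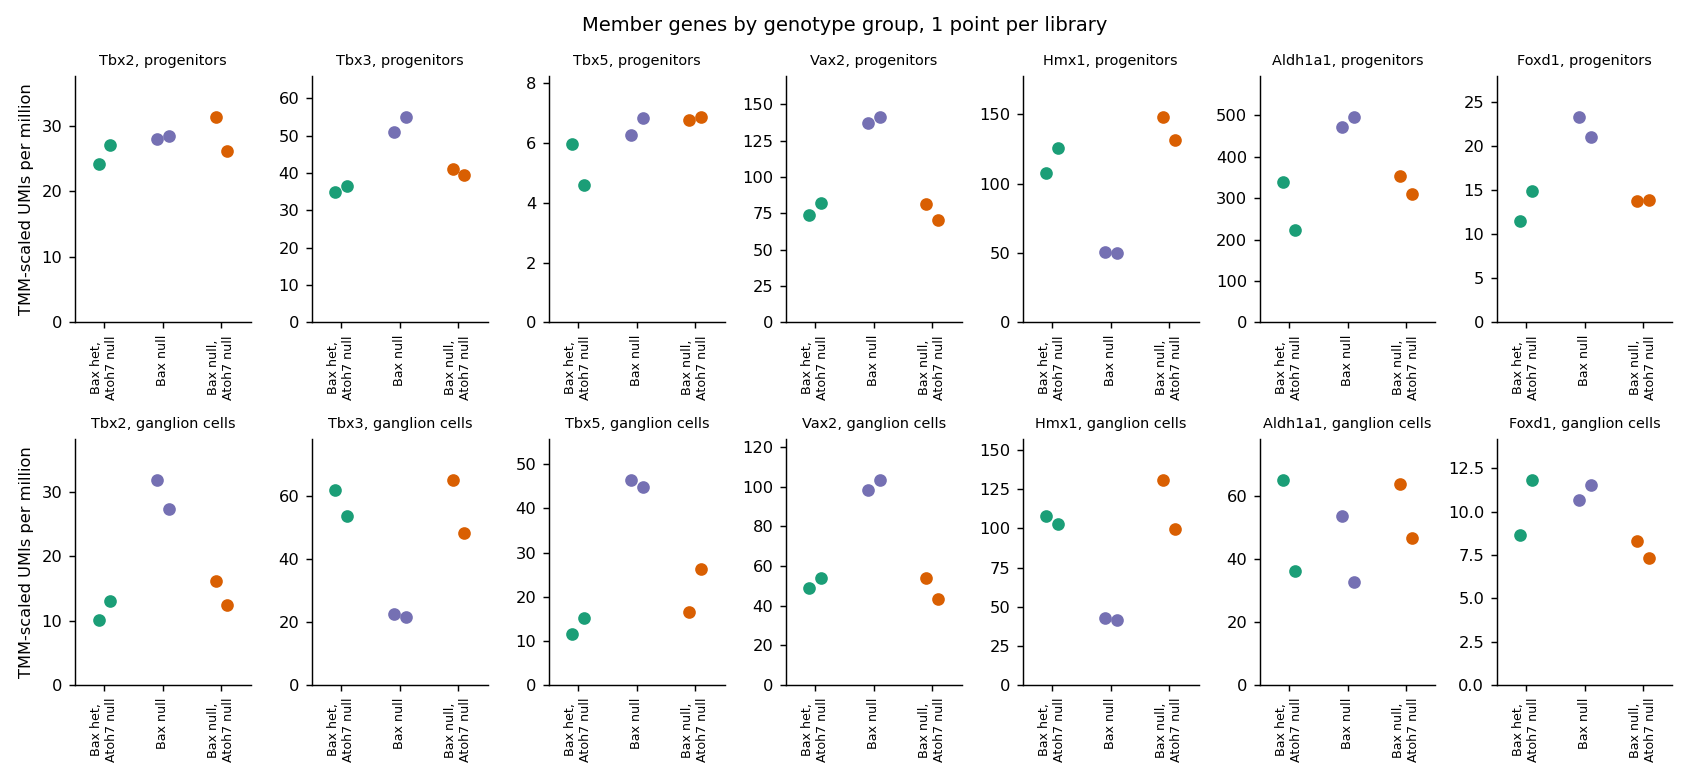
TMM-scaled CPM of 7 members in progenitors (top) and ganglion cells (bottom) by genotype group, with 1 point per library and axes from 0. Bax null libraries are lowest for Hmx1 in both types and, in ganglion cells, highest for Tbx5 (46.5 and 44.8) and lowest for Tbx3 (22.6 and 21.6).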

How the data were processed

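Per the submitters' processing notes, reads were handled with Cell Ranger 1.2.1 on mm10, and the extraction label names 3' single-cell chemistry. The authors deposited 1 matrix of raw UMI counts with tables of cells (cell type, cluster) and genes. Matrix totals equalled the deposited totals in all 67050 cells used, and 2 libraries with 26078 cells were not analysed here. The members and gene lists were chosen with earlier results of these data known.

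Counts were summed per library and cell type (CPM) and tested with edgeR 4.0.16 in R 4.3.3: filterByExpr, TMM, the quasi-likelihood F test, two-sided, all 6 libraries, group as the only term, Benjamini-Hochberg over all genes tested, called at 0.05. An exact permutation test of 2 against 2 libraries cannot pass this threshold. Sums of marked progenitors were fitted with the library as a block. The fitting scripts were tested on simulated data. No doublet caller was run; an alternative leaves out the 8% of cells per library with the most UMIs. Genes were named by rule: the members, listed genes that were called, and the 8 highest and 8 lowest per class comparison with 20 CPM or more and 1 direction in all 6 libraries (no X-inactivation or Y-linked genes), plus the 2 most alike per member. DESeq2 1.42.0 was an alternative. Keeping shared barcodes once, scaling to total UMIs and the within-library difference were chosen after seeing the data. A few single-gene results are left out of the text and figures.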

Additional observations from a re-analysis of the deposited data

Results flagged for a closer look

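These results were singled out because the difference between genotype groups in a cell type departed from that in progenitors of the same libraries (edgeR interaction of cell type and group with the library as a block, adjusted p under 0.05). Values are log2 differences of differences, and 24 of them passed among the members. Between double null and Bax null, neurogenic cells departed in Tbx3 (0.90), Hmx1 (-0.36), Vax2 (-0.41), Aldh1a3 (-1.42) and Aldh1a1 (-0.66), where 7.46% of genes tested did. Between het-null and Bax null, the same 5 members departed, Tbx3 by 0.90, Hmx1 by -0.37, Vax2 by -0.62, Aldh1a3 by -0.96 and Aldh1a1 by -0.52 (8.35% of genes). Ganglion cells departed in Tbx3 (1.79), Tbx5 (-1.15), Tbx2 (-1.05) and Aldh1a1 (0.93) for double null minus Bax null (15.7% of genes), and in Tbx3 (1.94), Tbx5 (-1.41), Tbx2 (-1.19) and Aldh1a1 (0.997) for het-null minus Bax null (15.2%). The marker sums of ganglion and neurogenic cells moved with these groups as given above, and their part was not tested.

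Cones departed in Aldh1a1 (0.99) and Vax2 (0.86) for double null minus Bax null (4.91% of genes), in Tbx3 (0.84) for het-null minus Bax null (5.3%), and in Aldh1a1 (0.82) between the 2 groups lacking Atoh7, where 2 of 13168 genes passed. Horizontal cells departed in Tbx3 (0.60) and Aldh1a1 (0.90) for double null minus Bax null (3.09%). In ganglion cells, cones and horizontal cells the Hmx1 difference did not pass this test, with sizes up to 0.23 (cones, het-null minus Bax null, edgeR adjusted p = 0.735).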

How the results depend on the processing

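Of 37 called member differences between genotypes, 2 reversed and 22 of 555 recomputed values lost the call. Scaled to total UMIs only, Tbx3 (0.23) and Aldh1a1 (0.094) reversed in progenitors for double null minus Bax null. The number of members called in the other 4 types rose from 13 to 20 under that scaling. Between the 2 groups lacking Atoh7 that number, 1 with all libraries, was 0 with DESeq2, with only the 4 libraries compared, with thinned sums and without the deepest 8% of cells, and 2 without the filter on low counts. Leaving out 1 library gave 13 to 15 (double null minus Bax null), 12 to 15 (het-null minus Bax null) and 0 to 2 calls in these types, and 4 to 5, 5 and 0 calls in progenitors.

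Genes called between Tbx-marked and Vax-marked cells, 2186, were 886 with DESeq2, 759 in thinned cells, 1157 between Tbx5 and Vax2 alone, 83 without the library block and 1653 to 2015 without 1 library. Hmx1 (0.37) and Stra6 (0.22) reversed between Tbx5 and Vax2 alone. Genes called between Foxd1-marked and Hmx1-marked cells, 238, were 79 with DESeq2, 24 in thinned cells, 142 without the deepest cells, 5 without the library block and 122 to 243 without 1 library. The cause was not tested, except that thinning leaves fewer cells and genes.

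The T-box with Vax ratio was 0.64 within clusters, 0.62 without bins, 0.49 in thinned cells, 0.51 without the deepest cells and 0.54 to 0.56 without 1 library. Foxd1 with Hmx1 gave 0.75, 0.85 (without bins), 0.54 (without the deepest cells) and 0.63 to 0.69. In thinned cells only 96 progenitors had both Foxd1 and Hmx1, and no thinned ratio is given for this pair. Aldh1a1 with Aldh1a3 gave 0.90, 1.2 and 0.98 to 1.03. Without 1 library, 5 to 6 members were highest in progenitors. With the replicate number as a block, 5, 0 and 5 members were called in progenitors. The block ended no member's call and added Aldh1a1 in cones (het-null minus Bax null) and in ganglion cells (double null minus Bax null). Differences between same-numbered replicates correlated across genes at 0.25 between het-null and double null. They correlated at 0.011 between het-null and Bax null and at -0.11 between Bax null and double null. In het-null and double null, replicate 2 was the shallower library (medians 2206 and 1634 against 2632 and 1940 UMIs per cell). Its haemoglobin sum in progenitors was also lower (6.85 and 3.42 against 55.4 and 118 CPM). Whether the numbers pair the libraries of these 2 groups was not tested.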
